A study of Homo sapiens with 7 samples.

Results

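GATA2, GATA3, HAND1, HAND2, TBX2, ISL1 and PBX3 encode DNA-binding transcription factors of the adrenergic circuit of neuroblastoma. They were taken by gene symbol as 7 of the 28517 entries in the deposited tables, as a set proposed with earlier results of these data known. All 7 were found, and all 7 were among the 14711 entries kept for testing, which had a mean of at least 0.5 RPKM (reads scaled by the length of the entry and by the total count of the library) over the control and ARID1A-/- libraries.

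In the developing sympathetic nervous system, these factors act in a network whose members bind their own enhancers and one another's. The same network holds neuroblastoma cells in the adrenergic state, in which they resemble sympathetic neuroblasts, as opposed to a mesenchymal state that resembles migratory neural crest. GATA2 and GATA3 are zinc finger proteins that bind GATA motifs, HAND1 and HAND2 are basic helix-loop-helix proteins that bind E-boxes as dimers with E-proteins, TBX2 is a T-box repressor, ISL1 is a LIM homeodomain protein, and PBX3 is a homeodomain protein that pairs with MEIS and PKNOX proteins. ARID1A is a subunit of the BAF (SWI/SNF) complex, which moves nucleosomes at enhancers and promoters.

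RNA came from NGP, a human cell line grown from a neuroblastoma and carrying extra copies of MYCN. The groups were ARID1A-/- line 1 (2 libraries), ARID1A-/- line 2 (2), ARID1A+/- (1) and control NGP cells labelled only as control (2). All 4 groups, the control among them, were grown in medium with 10% serum and 0.5 ug/ml puromycin, and the labels do not say how the mutations were made or whether a line is 1 clone. Each group with 2 libraries had one from the SMARTer Universal Low Input kit and one from KAPA mRNA HyperPrep, whereas ARID1A+/- had a KAPA library alone. Below, the SMARTer value of a group is always given before its KAPA value.

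Total counts lay between 24445301 and 43644361 per library, and the members had between 526 counts (PBX3) and 33173 counts (HAND2) in a library. Over all kept genes, libraries of a group differed by far more than counting error. Among the members, GATA2 (15.5 and 15.9 RPKM) and HAND2 (308 and 307 RPKM) in line 2 differed little between libraries. ARID1A itself was at 16.7 and 17.2 RPKM in line 1, 14.2 and 13.8 in line 2, 19.9 in ARID1A+/- and 22.3 and 22.0 in control, which places both ARID1A-/- lines below control but not at 0. In edgeR's quasi-likelihood test its log2 fold change was -0.38 in line 1 (adjusted p = 0.066) and -0.70 in line 2 (adjusted p = 0.0094). In ARID1A+/- it was -0.10. MYCN (606 to 3663 RPKM) and CHGA (79.8 to 239 RPKM) were present in every library of this neuroblastoma line, while TH, which encodes tyrosine hydroxylase, had 0 to 38 counts and did not pass the filter. Nothing in the labels ties the libraries of a group to different cultures, so the spread behind each p-value may be technical. In bulk RNA, fewer cells of a type and less RNA per cell cannot be told apart.

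Over both ARID1A-/- lines, GATA2 and PBX3 fell and the other 5 members did not pass the threshold. The threshold was a Benjamini-Hochberg adjusted p of 0.05 over all kept genes in edgeR's quasi-likelihood test, with the kit in the model. This made 2 of 7 members called, both lower, where 14.2% of all genes tested were called (4.64% rose and 9.57% fell). The median log2 fold change of the members was -0.13, against 0.02 over all genes tested. In line 1, 3 of 7 members were called (HAND1 rose, GATA2 and PBX3 fell), where 13.0% of all genes were (4.75% rose and 8.27% fell). In line 2, 3 of 7 were called (GATA2, HAND1 and PBX3, all lower), where 14.0% of all genes were (5.47% rose and 8.52% fell). These 3 comparisons use the same control libraries, so their values are set side by side and not counted as separate evidence.

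**Figure D1:**
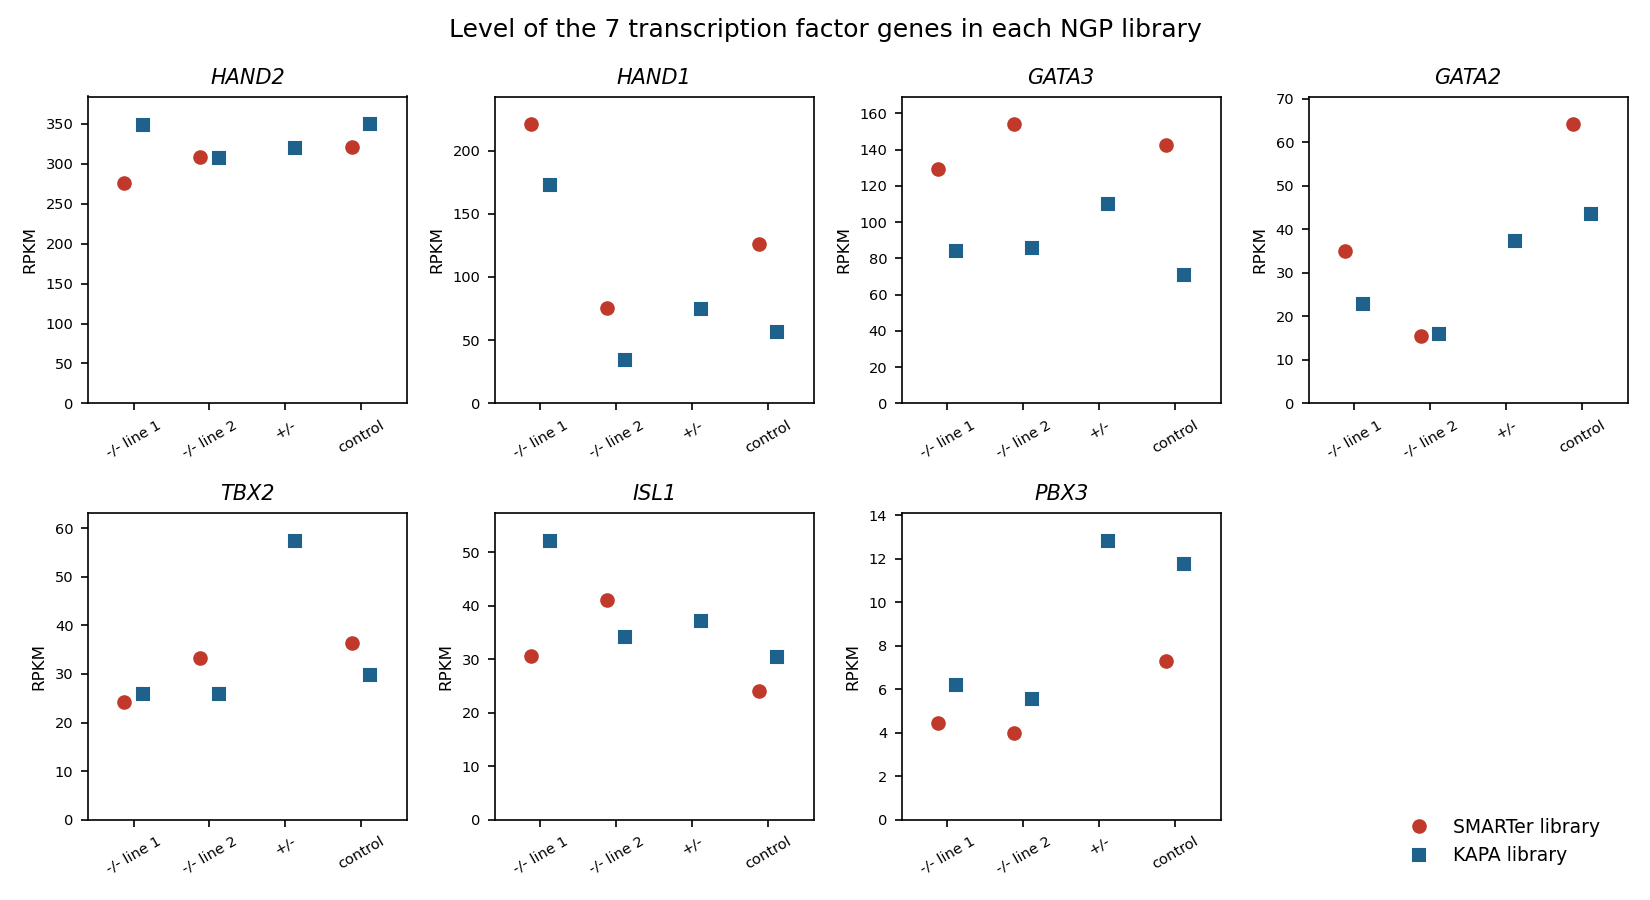
RPKM of each of the 7 genes (a linear axis from 0 per gene) in each of the 7 libraries, grouped as ARID1A-/- line 1, ARID1A-/- line 2, ARID1A+/- and control; the symbol gives the kit and each point is 1 library. GATA2 and PBX3 lie lower in all 4 ARID1A-/- libraries than in both control libraries, HAND1 is highest in line 1, TBX2 is highest in ARID1A+/-, and HAND2 stays between 276 and 349 RPKM.

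GATA2, which acts in the development of sympathetic neurons, was at 35.1 and 22.9 RPKM in line 1, 15.5 and 15.9 RPKM in line 2, 37.2 RPKM in ARID1A+/- and 64.1 and 43.5 RPKM in control. Every ARID1A-/- library was below both control libraries, and both line 2 libraries were below both line 1 libraries. The mean was 29.0 ± 8.60 RPKM in line 1, 15.7 ± 0.247 RPKM in line 2 and 53.8 ± 14.6 RPKM in control (SD, n = 2 each). Over both lines the log2 fold change against control was -1.33 ± 0.16 (SE, adjusted p = 0.0031), a fold of 0.398.

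GATA2 fell by 0.89 ± 0.19 on the log2 scale in line 1 (adjusted p = 0.030) and by 1.77 ± 0.20 in line 2 (adjusted p = 0.0028). The difference between the lines was itself past the threshold, with line 1 higher than line 2 by 0.89 ± 0.19 (adjusted p = 0.030). Within a kit, GATA2 in line 1 differed from control by -0.85 (SMARTer) and -0.93 (KAPA), and in line 2 by -2.12 and -1.46, so the 4 within-kit differences had 1 sign. The gap between the lines was wider in the SMARTer libraries (1.27) than in the KAPA libraries (0.52). Without the SMARTer control library the difference over both lines was -1.21 (adjusted p = 0.067) and without the kit term it was -1.36 (adjusted p = 0.051). The line 1 call was also lost without either control library (-0.76 and -1.02) and without the kit term (-0.88), while the line 2 call was kept in all 14 alternative settings. The difference between the lines was 0.57 (adjusted p = 0.18) without the SMARTer library of line 2, 0.90 (adjusted p = 0.052) without the SMARTer control library and 0.96 (adjusted p = 0.22) without the kit term.

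The promoters of GATA2 are shown because this gene moved in both lines. RefSeq places its starts on the minus strand of chromosome 3 at chr3:128493152-128493451 (window 1) and chr3:128488481-128488780 (window 2), in GRCh38.p14, each window running from 250 bases before a start to 50 after it. Capitals mark E-boxes, written CANNTG and read on both strands, the class of site that HAND dimers bind.

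GATA2 window 1: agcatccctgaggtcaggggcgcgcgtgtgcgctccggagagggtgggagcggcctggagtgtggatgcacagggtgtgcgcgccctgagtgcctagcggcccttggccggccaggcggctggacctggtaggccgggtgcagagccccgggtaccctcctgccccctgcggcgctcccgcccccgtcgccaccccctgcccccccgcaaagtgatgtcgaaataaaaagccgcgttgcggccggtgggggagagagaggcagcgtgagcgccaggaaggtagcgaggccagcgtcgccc

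GATA2 window 2: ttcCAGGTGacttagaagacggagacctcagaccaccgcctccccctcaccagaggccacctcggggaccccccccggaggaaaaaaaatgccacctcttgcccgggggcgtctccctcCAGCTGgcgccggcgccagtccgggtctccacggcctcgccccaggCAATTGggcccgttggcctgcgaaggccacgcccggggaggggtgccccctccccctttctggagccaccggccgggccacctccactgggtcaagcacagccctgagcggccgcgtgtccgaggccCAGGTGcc

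Window 1 held no E-box and window 2 held 4, where 68.7% of 35116 human promoter windows of this length held at least 1. Neither window held GATAA on either strand, a motif that 22.7% of all windows held. A match or its absence describes these letters only and not binding.

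GATA3, the paralog required for sympathetic neuron development, did not pass the threshold against control in any of the 3 mutant lines. It was at 129 and 83.8 RPKM in line 1, 154 and 85.7 RPKM in line 2, 110 RPKM in ARID1A+/- and 142 and 70.8 RPKM in control. The groups overlapped, and within each group of 2 libraries the SMARTer one was the higher. The log2 fold change over both lines was 0.11 ± 0.11 (adjusted p = 0.59), 0.06 ± 0.13 in line 1 (adjusted p = 0.81) and 0.15 ± 0.13 in line 2 (adjusted p = 0.48). In ARID1A+/-, with 1 library, it was 0.59 ± 0.17 (adjusted p = 0.15), a KAPA difference of 0.69. That value passed the threshold with DESeq2 (adjusted p = 0.047) and without either line 1 library (adjusted p = 0.035 and 0.030), and was -0.02 without the kit term. The sign over both lines and in line 1 depended on single libraries: leaving out each library in turn gave values between -0.04 and 0.23 over both lines, and between -0.09 and 0.18 in line 1.

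The ratio of GATA3 to GATA2 in RPKM was 3.69 and 3.65 in line 1, 9.92 and 5.40 in line 2, 2.95 in ARID1A+/- and 2.22 and 1.63 in control. All 4 ARID1A-/- libraries lay above the other 3 libraries. A ratio shows unequal change of 2 genes and not which one changed. An entry for the antisense RNA GATA3-AS1 was at 22.0 and 17.6 RPKM in line 1, 24.9 and 16.7 RPKM in line 2, 32.2 RPKM in ARID1A+/- and 32.3 and 20.5 RPKM in control. Its log2 fold change against control over both lines was -0.38 ± 0.11 (adjusted p = 0.071), and against ARID1A+/- it was -1.01 (adjusted p = 0.0070). Whether reads were counted by strand is not given in the sources used here, so reads of a gene and of its antisense partner cannot be told apart.

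HAND1 moved in opposite directions in the ARID1A-/- lines. This factor, best known for its part in heart and placenta, was at 221 and 173 RPKM in line 1, 75.5 and 34.3 RPKM in line 2, 74.9 RPKM in ARID1A+/- and 126 and 56.7 RPKM in control. Both line 1 libraries lay above the 5 others, and within each kit line 2 lay below control. The mean was 197 ± 34.0 RPKM in line 1, 54.9 ± 29.1 RPKM in line 2 and 91.5 ± 49.1 RPKM in control (SD, n = 2 each), and across kits the values of line 2 and control overlapped.

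In line 1 HAND1 rose by 1.22 ± 0.20 on the log2 scale (adjusted p = 0.011), a fold of 2.34, and in line 2 it fell by 0.77 ± 0.20 (adjusted p = 0.048). Their difference, line 1 minus line 2, was 2.00 ± 0.20 (adjusted p = 0.0026), a fold of 3.99. Averaged over both lines, the log2 fold change against control was 0.22 ± 0.17 (adjusted p = 0.43), and 0.40 (adjusted p = 0.034) without the SMARTer library of line 1. Within a kit the line 1 difference from control was 0.83 (SMARTer) and 1.59 (KAPA), and the line 2 difference was -0.81 and -0.73. The difference between the lines kept its call in all 13 alternative settings that kept the kit term, and without the kit term it was 1.88 (adjusted p = 0.15). The rise in line 1 missed the threshold without either control library (1.41 and 1.01) and without the kit term (1.09). The fall in line 2 lay closest to the threshold: it was lost with DESeq2's size factors (adjusted p = 0.051), with limma (-0.72 and -0.73), without the kit term (-0.79) and without either control or either line 2 library (-0.57 to -0.97). Between the lines, 2 of 7 members were called (HAND1 and GATA2, both higher in line 1), where 12.8% of all genes were (5.71% higher and 7.10% lower in line 1).

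Some markers of fibroblasts moved with HAND1 between the lines. The summed RPKM of the 9 fibroblast markers listed was 224 and 246 in line 1, 65.3 and 61.9 in line 2, 111 in ARID1A+/- and 100 and 101 in control. COL1A1 carried most of the difference, with a line 1 minus line 2 value of 2.76 ± 0.19 (adjusted p = 0.00079). Of the 9, 7 passed the filter, of which 3 (COL1A1, COL3A1 and LUM) were higher in line 1 than in line 2 and 4 were not past the threshold, DCN among them at -0.30. COL1A2 had 0 to 6 counts per library and FAP had 0 in all. Their part in the HAND1 result was not tested.

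HAND2, which is needed for noradrenergic identity, was the most abundant member. It was at 276 and 349 RPKM in line 1, 308 and 307 RPKM in line 2, 319.5 RPKM in ARID1A+/- and 321 and 349 RPKM in control. Line 1 overlapped control, while both line 2 libraries lay below both control libraries. The log2 fold change was -0.13 ± 0.11 over both lines (adjusted p = 0.48), -0.10 ± 0.13 in line 1 (adjusted p = 0.64) and -0.16 ± 0.13 in line 2 (adjusted p = 0.46).

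The ratio of HAND2 to HAND1 was 1.25 and 2.02 in line 1, 4.08 and 8.96 in line 2, 4.27 in ARID1A+/- and 2.54 and 6.16 in control. It was lowest in line 1 within each kit and highest in line 2. NBLA00301, which RefSeq lists as a synonym of HAND2-AS1, the long non-coding RNA that shares a promoter region with HAND2, was at 50.5 and 60.8 RPKM in line 1, 66.6 and 70.1 RPKM in line 2, 29.6 RPKM in ARID1A+/- and 40.9 and 38.8 RPKM in control, with all 4 ARID1A-/- libraries above the other 3. NBLA00301 rose over both lines by 0.61 ± 0.11 (adjusted p = 0.017), in line 2 by 0.74 (adjusted p = 0.014), and its difference in line 1 was 0.48 (adjusted p = 0.056). Against ARID1A+/- the ARID1A-/- lines were higher by 1.04 (adjusted p = 0.0088). Without any 1 library of the control or of line 2 it missed the threshold over both lines (0.48 to 0.72). The ratio of NBLA00301 to HAND2 was 0.183 and 0.174 in line 1, 0.216 and 0.228 in line 2, 0.0927 in ARID1A+/- and 0.127 and 0.111 in control.

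**Figure D2:**
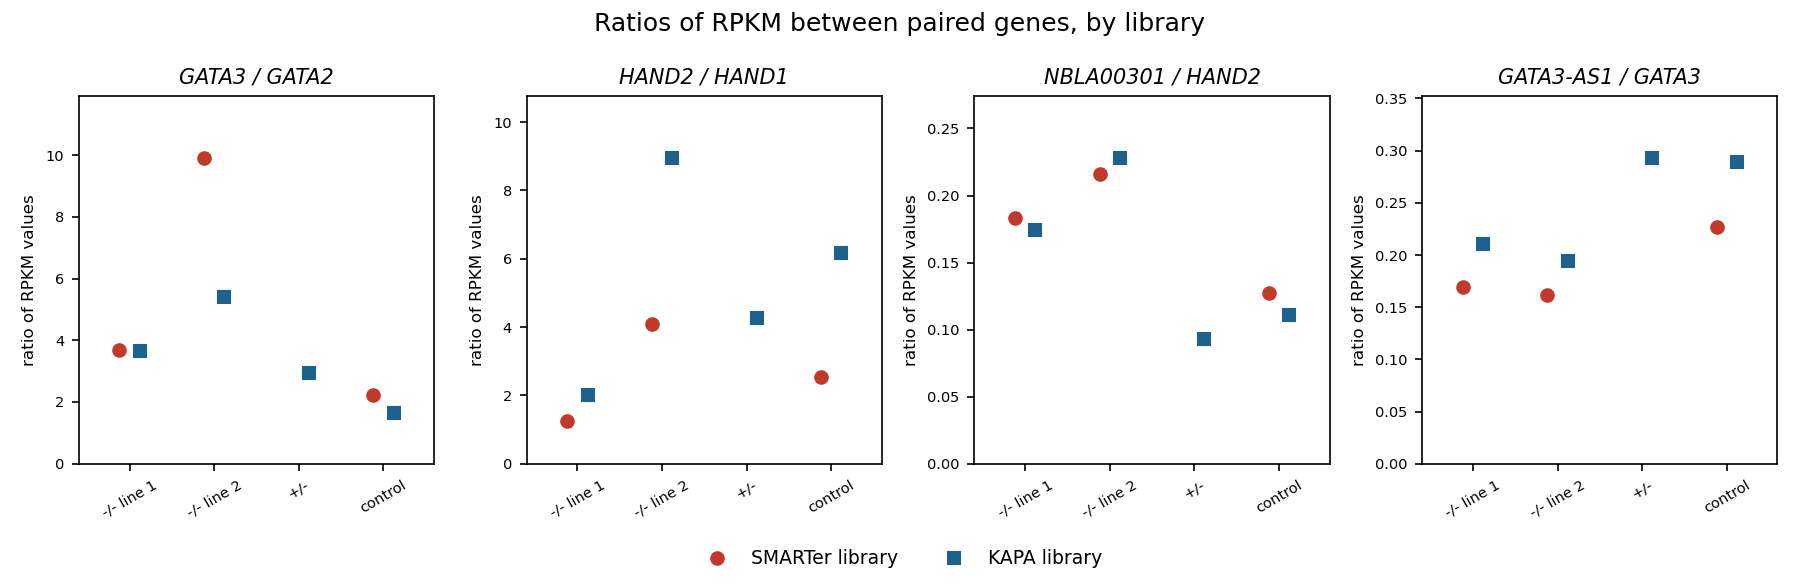
RPKM ratios of 4 pairs (a linear axis from 0 per pair) in each of the 7 libraries, in the order ARID1A-/- line 1, ARID1A-/- line 2, ARID1A+/- and control; the symbol gives the kit. GATA3 to GATA2 and NBLA00301 to HAND2 are higher in all 4 ARID1A-/- libraries than in the other 3, whereas HAND2 to HAND1 separates line 1 from line 2.

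The HAND promoters are shown because HAND1 passed the threshold in each ARID1A-/- line and HAND2 in neither. Both are read on the minus strand, HAND1 at chr5:154478178-154478477 and HAND2 at chr4:173530180-173530479 in GRCh38.p14 from RefSeq. Capitals mark GATAA, or TTATC where the match is on the other strand, the core that GATA factors bind.

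HAND1: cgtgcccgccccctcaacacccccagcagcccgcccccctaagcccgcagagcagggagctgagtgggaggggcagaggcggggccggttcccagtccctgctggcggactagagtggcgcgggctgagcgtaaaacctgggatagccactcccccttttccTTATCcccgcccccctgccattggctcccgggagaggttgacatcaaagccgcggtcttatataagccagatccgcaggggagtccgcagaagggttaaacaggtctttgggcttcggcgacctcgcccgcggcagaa

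HAND2: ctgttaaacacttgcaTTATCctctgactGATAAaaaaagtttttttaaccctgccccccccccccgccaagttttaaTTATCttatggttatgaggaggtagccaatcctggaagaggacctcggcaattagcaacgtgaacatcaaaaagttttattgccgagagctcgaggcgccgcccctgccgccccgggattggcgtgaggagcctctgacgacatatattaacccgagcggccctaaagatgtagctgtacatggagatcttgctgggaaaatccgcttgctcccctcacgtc

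The HAND1 window held 1 GATAA match and the HAND2 window 3. The HAND2 window also held 1 TAATTA, a homeodomain core present in 4.84% of all windows, which overlaps 1 of the GATAA matches. RefSeq windows were found for 6 of the 7 members, 12 windows in all, of which 4 held GATAA (those of HAND1, HAND2 and ISL1 and 1 of the 6 of GATA3). TCACACCT, a T-box half-site found in 0.98% of all windows, TGATTGAT, a PBX and HOX site found in 0.484%, and CATCTG, an E-box form found in 14.7%, occurred in none of the 12. Both strands were read for each motif, and CATCTG is also counted under CANNTG.

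TBX2, which holds down cell cycle inhibitors in several cancers and drives proliferation genes in neuroblastoma, passed the threshold against control in ARID1A+/- and in neither ARID1A-/- line. It was at 24.2 and 25.9 RPKM in line 1, 33.3 and 25.9 RPKM in line 2, 57.5 RPKM in ARID1A+/- and 36.5 and 29.8 RPKM in control. The ARID1A+/- library was the highest of the 7. In each kit both ARID1A-/- lines were below control, and without regard to kit line 2 overlapped control. The log2 fold change was -0.29 ± 0.12 over both lines (adjusted p = 0.14), -0.39 ± 0.13 in line 1 (adjusted p = 0.11) and -0.20 ± 0.13 in line 2 (adjusted p = 0.36). Without the KAPA library of line 1, TBX2 passed the threshold over both lines (-0.39, adjusted p = 0.022) and in line 1 (-0.57, adjusted p = 0.021), and without the SMARTer library of line 1 the value in line 1 was -0.21 (adjusted p = 0.45).

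In ARID1A+/- TBX2 rose by 0.94 ± 0.17 against control (adjusted p = 0.039), a fold of 1.92, and it was the only member of the 7 called in that comparison, where 3.30% of all genes were (1.15% rose and 2.15% fell). This comparison has 1 ARID1A+/- library, which was assumed to vary like the others, and its KAPA difference from control was 1.00. The call was lost with limma (0.87 and 0.89), without the kit term (0.75), and without either control (0.83 and 0.99) or either line 2 library (0.91 in both cases). Fibroblast markers also differed in this library: of the 7 that passed the filter, COL3A1 (2.08), DCN (3.85), LUM (2.93) and PDGFRB (1.98) rose against control on the log2 scale, COL1A1 fell (-1.73), and the median was 1.98. Their part in the TBX2 result was not tested.

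Set against ARID1A+/-, the ARID1A-/- lines had less TBX2, with a log2 difference of -1.24 ± 0.15 (adjusted p = 0.0039). GATA2 and PBX3 were also lower in the ARID1A-/- lines, with differences of -1.07 ± 0.22 (adjusted p = 0.023) and -1.15 ± 0.17 (adjusted p = 0.0069), so that 3 of 7 members were called, all lower, where 12.8% of all genes were called (5.27% higher and 7.54% lower). The ARID1A+/- library serves in both of these comparisons. The GATA2 call was lost without either control library (-1.03 and -1.02), and without the kit term both GATA2 (-0.77) and TBX2 (-1.05) missed the threshold. The 4 members not called in this comparison had log2 differences of -0.49 ± 0.15 (GATA3, adjusted p = 0.092), -0.08 (HAND1), -0.04 (HAND2) and 0.16 (ISL1).

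**Figure D3:**
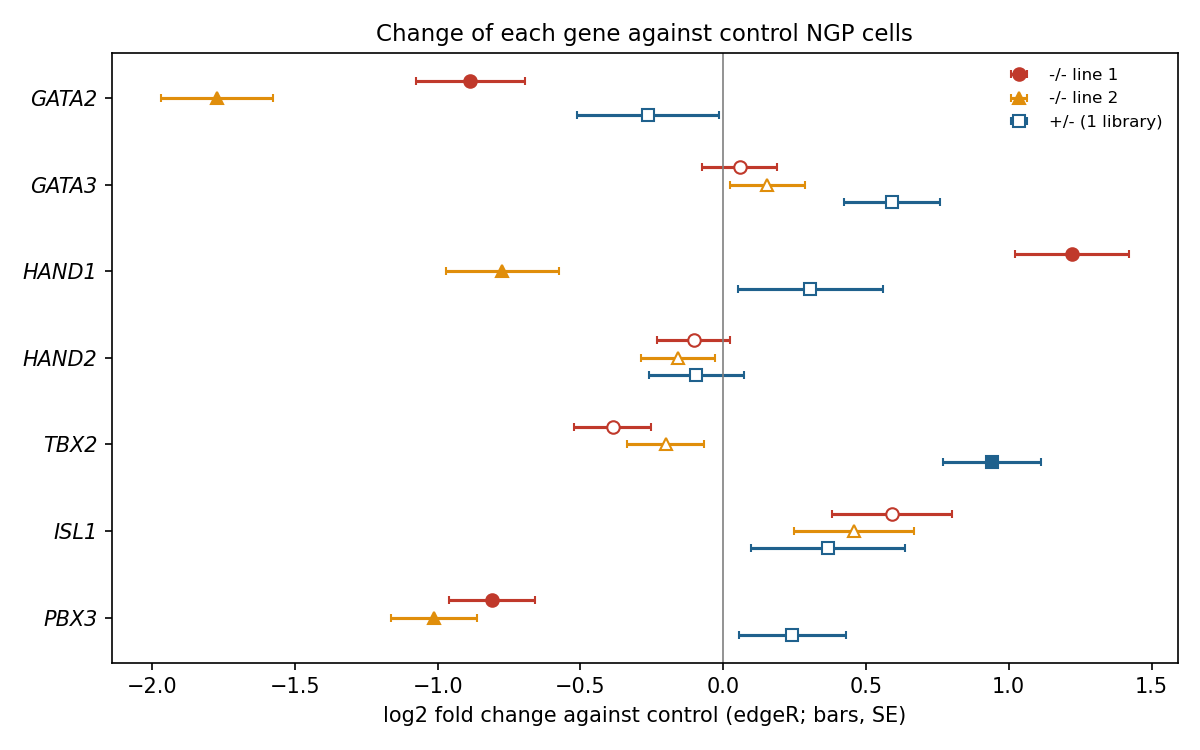
Log2 fold change against control, with its standard error, of each of the 7 genes in ARID1A-/- line 1, ARID1A-/- line 2 and ARID1A+/-; filled points have an adjusted p under 0.05 in edgeR's quasi-likelihood test. GATA2 and PBX3 are filled below 0 in both lines, HAND1 lies at 1.22 in line 1 and -0.77 in line 2, and TBX2 is filled only in ARID1A+/-, at 0.94.

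ISL1, which acts in sympathetic neuron differentiation and catecholamine synthesis, was the member with the highest positive log2 fold change over both lines, without passing the threshold. It was at 30.7 and 52.2 RPKM in line 1, 41.0 and 34.2 RPKM in line 2, 37.1 RPKM in ARID1A+/- and 24.0 and 30.4 RPKM in control. Both control libraries were the lowest of the 7, though the KAPA control lay just under the SMARTer library of line 1, and the lines overlapped each other. The log2 fold change was 0.52 ± 0.19 over both lines (adjusted p = 0.11), 0.59 ± 0.21 in line 1 (adjusted p = 0.12) and 0.46 ± 0.21 in line 2 (adjusted p = 0.20). Within a kit, the line 1 difference was 0.38 (SMARTer) and 0.77 (KAPA) and the line 2 difference 0.70 and 0.17, so the kits ordered the lines differently. ISL1 passed the threshold over both lines without the SMARTer library of line 1 (0.67, adjusted p = 0.013) or the KAPA library of line 2 (0.69, adjusted p = 0.037). It passed in line 1 without the SMARTer library of line 1 (0.90, adjusted p = 0.016) and in line 2 without the KAPA library of line 1 (0.44, adjusted p = 0.047). Leaving out 1 library gave 0.24 to 0.90 in line 1 and 0.045 to 0.80 in line 2.

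PBX3, the least abundant member, fell in both lines. It was at 4.46 and 6.21 RPKM in line 1, 3.98 and 5.57 RPKM in line 2, 12.8 RPKM in ARID1A+/- and 7.29 and 11.8 RPKM in control. All 4 ARID1A-/- libraries were below the other 3. The mean was 5.34 ± 1.24 RPKM in line 1, 4.78 ± 1.12 RPKM in line 2 and 9.53 ± 3.18 RPKM in control (SD, n = 2 each).

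PBX3 fell by 0.91 ± 0.13 on the log2 scale over both lines (adjusted p = 0.0057), by 0.81 ± 0.15 in line 1 (adjusted p = 0.019) and by 1.01 ± 0.15 in line 2 (adjusted p = 0.0083). The 4 within-kit differences lay between -1.08 and -0.69, and the lines differed from each other by 0.20, which did not pass the threshold. ARID1A+/- differed from control by 0.24. Without the SMARTer control library the value over both lines was -1.04 (adjusted p = 0.073), without the KAPA control library it was -0.81 (adjusted p = 0.10), and without the kit term it was -0.92 (adjusted p = 0.077). The calls in line 1 and in line 2 were lost in the same 3 settings, and that in line 2 also without its KAPA library.

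Of 24 partner proteins listed for all the members, 21 passed the filter, and over both lines 5 rose and 6 fell, with a median log2 fold change of 0.15. Over all genes tested, to be read beside this count and those of the other lists below, 4.64% rose and 9.57% fell. Among the MEIS and PKNOX genes, whose proteins PBX3 pairs with, PKNOX2 fell by 2.65 ± 0.21 (adjusted p = 0.00076), while MEIS3 rose by 1.59 ± 0.15 (adjusted p = 0.0012) and MEIS2 rose by 0.80 ± 0.11 (adjusted p = 0.0056). MEIS1, chosen after its values were seen, differed between the lines, with line 1 minus line 2 at -1.30. Its mean was 7.51 RPKM in line 1, 19.0 RPKM in line 2 and 10.2 RPKM in control. PKNOX2 was at 0.156 and 0.274 RPKM in line 1, 0.312 and 0.466 RPKM in line 2, 2.34 RPKM in ARID1A+/- and 1.51 and 2.02 RPKM in control, so it was low beside PBX3 in every library. MEIS3 was at 33.0 and 20.2 RPKM in line 1, 56.4 and 48.6 RPKM in line 2, 10.0 RPKM in ARID1A+/- and 13.6 and 10.8 RPKM in control, above PBX3 in all 4 ARID1A-/- libraries. MEIS2 in ARID1A+/- moved the other way from control, by -0.97 (adjusted p = 0.032), a call lost without any 1 library of control or line 2.

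Of the E-proteins that HAND factors dimerise with, TCF4 rose over both lines by 0.80 ± 0.10 (adjusted p = 0.0034) and in ARID1A+/- by 0.86 (adjusted p = 0.028), the second call being lost without any 1 library of control or line 2. By mean, TCF4 was at 8.82 RPKM in line 1, 10.3 RPKM in line 2 and 5.43 RPKM in control. Means in the same order were 89.4, 85.0 and 102 RPKM for TCF3, and 26.8, 17.8 and 29.2 RPKM for TCF12. Both of these E-proteins were more abundant than TCF4. Their means were lower in both lines than in control, but TCF12 in line 1 lay within the spread of control. It was at 26.8 ± 12.1 RPKM in line 1 and 29.2 ± 7.30 RPKM in control (SD, n = 2 each). LDB2, a cofactor that binds LIM domains such as those of ISL1, fell by 2.38 ± 0.29 (adjusted p = 0.0034). Its mean was low, at 0.0969 RPKM in line 1, 0.400 RPKM in line 2 and 1.06 RPKM in control. LDB1, also listed, had means of 58.5, 57.9 and 50.2 RPKM in that order. Without the SMARTer control library the calls of LDB2, MEIS2 and TCF4 over both lines were lost (-2.13, 0.89 and 0.80), and those of PKNOX2 and MEIS3 were kept.

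Paralogs of the members gave a mixed picture over both lines. Of 33 listed, 16 passed the filter, 2 rose, 3 fell and 11 were not past the threshold, with a median log2 fold change of 0.02, equal to that of all genes. TBX3, the closest relative of TBX2 and likewise a repressor, rose by 1.70 ± 0.29 (adjusted p = 0.012), and GATA6 rose by 1.07 ± 0.25 (adjusted p = 0.034). TBX1, TBX18 and MGA fell, by 1.53 ± 0.14 (adjusted p = 0.0013), 1.81 ± 0.19 (adjusted p = 0.0018) and 0.45 ± 0.11 (adjusted p = 0.037). Of these 5, only TBX1 kept its call without either control library. By line, 1 paralog rose and 2 fell in line 1, where 4.75% of all genes rose and 8.27% fell. In line 2, 3 paralogs rose and 6 fell, where 5.47% of all genes rose and 8.52% fell. GATA6 and MGA passed the threshold in line 2 (1.42 and -0.62) and not in line 1.

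Values of the named T-box genes in the single ARID1A+/- library follow. TBX3 was at 23.2 and 15.2 RPKM in line 1, 21.9 and 34.8 RPKM in line 2, 0.144 RPKM (27 counts) in ARID1A+/- and 6.04 and 8.38 RPKM in control. Its log2 difference from control in ARID1A+/- was -5.67 ± 0.59 (adjusted p = 0.0087), opposite in sign to that of TBX2, and was -5.38 (adjusted p = 0.055) without the KAPA control library. TBX1 was at 12.2 and 11.1 RPKM in line 1, 5.50 and 4.12 RPKM in line 2, 40.4 RPKM in ARID1A+/- and 27.5 and 16.3 RPKM in control. TBX1 and TBX18 were higher than control in ARID1A+/-, by 1.19 ± 0.21 (adjusted p = 0.036) and 1.43 ± 0.24 (adjusted p = 0.030), and these calls were lost without either control library. TBX5, named after its values were seen, did not pass the threshold in ARID1A+/- (0.35, adjusted p = 0.51).

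**Figure D4:**
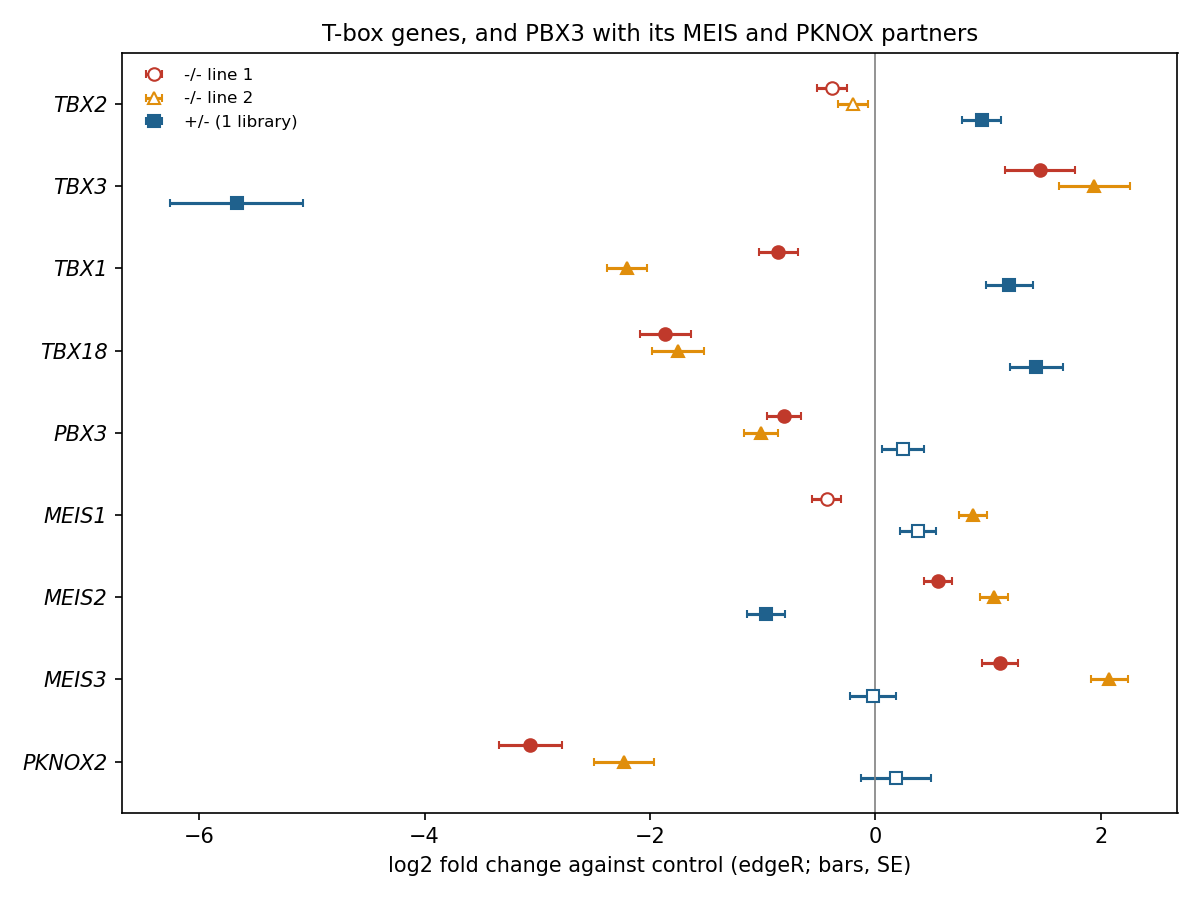
Log2 fold change against control, with its standard error, of TBX2 with 3 other T-box genes and of PBX3 with the MEIS genes and PKNOX2, in ARID1A-/- line 1, ARID1A-/- line 2 and ARID1A+/-; filled points have an adjusted p under 0.05. TBX3 lies at -5.67 in ARID1A+/- where TBX2 lies at 0.94, and PKNOX2 and PBX3 lie below 0 in both ARID1A-/- lines while MEIS3 lies above 0.

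Ranked by RPKM, which accounts for length, HAND2 had rank 1 and PBX3 rank 7 in 7 of 7 libraries. HAND1 had rank 2 in both line 1 libraries and rank 3 in the other 5, where GATA3 had rank 2. GATA2 had ranks 4 and 6 in line 1, rank 6 in both line 2 libraries, rank 5 in ARID1A+/- and rank 4 in both control libraries. TBX2 had rank 4 in ARID1A+/-. The neighbours GATA2 (37.2 RPKM) and ISL1 (37.1 RPKM) in ARID1A+/- and HAND1 (34.3 RPKM) and ISL1 (34.2 RPKM) in the KAPA library of line 2 stood too close to be ordered. HAND2 made up between 38.3% and 60.4% of the summed RPKM of the 7 members. That sum was 720 and 712 RPKM in line 1, 631 and 509 RPKM in line 2, 649 RPKM in ARID1A+/- and 721 and 592 RPKM in control. Control overlapped each ARID1A-/- line, while both line 1 sums lay above both line 2 sums.

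Some members differed between the SMARTer and KAPA libraries as far as between groups. GATA3 was higher with SMARTer than with KAPA by 1.00 ± 0.11 (adjusted p = 0.011) and HAND1 by 1.05 ± 0.16 (adjusted p = 0.019), 2 of 7 members, where 13.3% of all genes were called (7.99% higher and 5.30% lower with SMARTer). GATA2 differed by 0.55 (adjusted p = 0.062), TBX2 by 0.36 (adjusted p = 0.077), PBX3 by -0.38 (adjusted p = 0.083), ISL1 by -0.11 and HAND2 by 0.02. The KAPA libraries of these groups are the repeats, so kit and repeat cannot be told apart. The kit is balanced over the 3 groups with 2 libraries, while the ARID1A+/- library exists in KAPA alone. The GATA3 and HAND1 calls were lost without either control library, and that of HAND1 also without either line 2 library.

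For each member the 3 genes with the nearest profile were found by the root-mean-square distance of log2(RPKM + 1), centred on each gene's mean, over the 7 libraries and 11232 candidate genes. For GATA2 they were PKIG (0.17), STEAP3 (0.21) and KCP (0.25), for HAND1 ARHGDIB (0.19), HOXD11 (0.23) and PLK2 (0.24), and for PBX3 NXN (0.08), PAG1 (0.09) and ABTB2 (0.11). For TBX2 they were PAX6 (0.10), PROS1 (0.13) and MEX3C (0.13), and for ISL1 NEU3 (0.11), IPP (0.14) and ZNF30 (0.14). GATA3 was nearest to SRSF5 (0.07), SPRY2 (0.11) and COL6A1 (0.12), and HAND2 to MTX2 (0.03), DERL1 (0.04) and TMED10 (0.05). The members' own root-mean-square spread was 0.69 for GATA2, 0.86 for HAND1, 0.53 for PBX3, 0.39 for TBX2, 0.32 for ISL1, 0.39 for GATA3 and 0.11 for HAND2. The HAND2 profile was the flattest. The distances describe 7 libraries that share kits.

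Other adrenergic transcription factors moved in both directions. Of 18 listed, all 18 passed the filter, and over both lines 4 rose and 5 fell, with a median of -0.27. KLF7, a zinc finger factor of the nervous system, rose by 0.90 ± 0.12 (adjusted p = 0.0055). INSM1, a neuroendocrine repressor, fell by 1.21 ± 0.21 (adjusted p = 0.012), KLF13 fell by 0.59 ± 0.11 (adjusted p = 0.017) and DACH1 fell by 0.73 ± 0.14 (adjusted p = 0.019). Each of these 4 calls was lost without the SMARTer control library. The LIM-only partner LMO3, chosen after its values were seen, had a log2 fold change of -3.16 ± 0.33 in line 1 and 1.77 ± 0.27 in line 2 (adjusted p = 0.0026 and 0.0093). For LMO3, line 1 differed from line 2 by -4.93 ± 0.34 (adjusted p = 0.00075), the opposite sign to HAND1. Its means were 0.108 RPKM in line 1, 3.68 RPKM in line 2 and 1.08 RPKM in control. The LMO3 call in line 2 was lost without either control library or the KAPA library of line 2. LMO1, also chosen after its values were seen, had the same sign as HAND1, with line 1 minus line 2 at 1.87. That call was kept in all 14 alternative settings. Mean LMO1 was 11.3 RPKM in line 1, 3.09 RPKM in line 2 and 6.92 RPKM in control.

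Of 16 genes of the sympathetic program, 13 passed the filter, 3 rose and 3 fell over both lines, with a median log2 fold change of -0.03. SLC6A2, the noradrenaline transporter, rose by 2.55 ± 0.21, CHGA, a granule protein, by 1.06 ± 0.19 and DDC, which makes dopamine, by 0.93 ± 0.16. GCH1, which makes the cofactor of tyrosine hydroxylase, fell by 1.92 ± 0.18, and DLK1, a Notch ligand of chromaffin cells, fell by 0.93 ± 0.15. DDC rose by 1.54 in line 1 and had 0.33 (adjusted p = 0.27) in line 2, with a difference between the lines of 1.21 (adjusted p = 0.0087). CHGA rose by 1.30 in line 1 and had 0.81 (adjusted p = 0.054) in line 2, and their difference of 0.49 did not pass the threshold. DLK1 had -0.54 (adjusted p = 0.10) in line 1 and fell by 1.32 in line 2. Of the 13, 4 rose in line 1 and 1 rose in line 2. Without the KAPA control library the calls of CHGA, DDC and DLK1 were lost (0.71, 0.70 and -0.77). Of 13 cell cycle genes tied to TBX2 and FOXM1, 0 rose and 1 fell over both lines, E2F1 by 0.61 ± 0.11 (adjusted p = 0.017), and the median was 0.26. In line 1, 1 of them rose and 1 fell (E2F1, at -0.73), with a median of 0.50, where 13.0% of all genes were called. In line 2, 0 of them were called, with a median of 0.06, where 14.0% of all genes were called. Of 26 mesenchymal transcription factors, 16 passed the filter. Over both lines SNAI2 rose by 1.73 ± 0.37 (adjusted p = 0.027), and 4 fell, among them TBX18 above and SIX4 by 1.54 ± 0.24, with a median of -0.26. The E2F1, SNAI2 and SIX4 calls over both lines were lost without either control library.

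Markers of other cell types moved with the genotype too. The summed RPKM of the 7 Schwann cell and neural crest markers was 2.92 and 3.34 in line 1, 2.32 and 0.748 in line 2, 30.3 in ARID1A+/- and 41.9 and 30.2 in control, and 1 of the 7, NGFR, passed the filter. SOX10, a defining gene of both, had 0 to 4 counts in any library. The summed RPKM of the 12 blood and endothelial markers was 5.35 and 6.59 in line 1, 6.23 and 5.67 in line 2, 9.88 in ARID1A+/- and 13.9 and 12.3 in control, with PECAM1 and HBB at 0 counts in all libraries and PTPRC at 0 to 5. Both sums, like GATA2 and PBX3, were lower in every ARID1A-/- library than in any other library. The blood and endothelial sums of line 1 and line 2 overlapped, whereas GATA2 was lower in line 2 than in line 1. The part of these markers in the GATA2 and PBX3 results was not tested.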

How the data were processed

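RNA-seq libraries (7) of NGP cells were analysed from the tables that the authors deposited. Alignment used HISAT2 2.1.0 and the hg19 build, per the submitters' processing notes. The sources used here give no counting program, annotation or strand setting. The authors deposited whole-number counts and RPKM values for each of 28517 entries, per the file headers. The deposited RPKM equals count over length and library total to within 0.000501%. Per the labels' protocols, reads were single-end of 75 bp from fragments of about 300 bp. The labels name both polyadenylated RNA and depletion of ribosomal RNA, so how RNA was selected is uncertain.

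The filter kept 14711 entries whose RPKM averaged 0.5 or more in the 6 libraries of ARID1A-/- and control. edgeR 4.0.16 in R 4.3.3 fitted its quasi-likelihood model to the deposited counts, scaled by TMM, with group and kit as terms (2 residual degrees of freedom), and Benjamini-Hochberg adjustment ran across every kept gene. Comparisons with ARID1A+/- came from a fit of all 7 libraries. A standard error is the log2 fold change over the square root of its F statistic, and fold changes come from TMM-scaled counts, not RPKM. Alternatives used DESeq2 1.42.0 or its size factors, limma 3.58.1 on log2(RPKM + 1) and log2(RPKM + 0.1), other filters, no kit term, and 1 library fewer. The kit pairs libraries per the labels: differences between kits correlated at 0.46 (control and line 1), 0.57 (control and line 2) and 0.38 (line 1 and line 2) over 14711 genes. Libraries of a group differed far beyond sampling noise.

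The members and gene lists were chosen with earlier results of these data known. Besides the members and ARID1A, up to 5 genes per list with the smallest p over both lines past the threshold, and the 3 nearest profiles of each member, were named. COL1A1, LDB1, LMO1, LMO3, MEIS1, TBX5, TCF3 and TCF12 were chosen after their values were seen. Some genes are not reported here, but are included in the counts and sums of their lists. Promoter windows come from RefSeq (GRCh38.p14), a different build from the files, and were joined by gene symbol.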

Additional observations from a re-analysis of the deposited data

Results flagged for a closer look

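HAND1 and GATA2 differed between the ARID1A-/- lines by a direct test. HAND1 was higher in line 1 than in line 2 by 2.00 on the log2 scale (adjusted p = 0.0026, edgeR), in both kits, with opposite signs against control. GATA2 was higher in line 1 by 0.89 (adjusted p = 0.030), in both kits, with the same sign against control in both lines.

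For 3 members the ARID1A-/- lines differed from the single ARID1A+/- library, whose spread was assumed to be that of the other groups, so 1 line and 1 library stand for that genotype. Both ARID1A-/- lines minus ARID1A+/- gave -1.07 for GATA2 (adjusted p = 0.023), -1.24 for TBX2 (adjusted p = 0.0039) and -1.15 for PBX3 (adjusted p = 0.0069), from 4 ARID1A-/- libraries and 1 ARID1A+/- library. Without the kit term the GATA2 and TBX2 calls were lost.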

How the results depend on the processing

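Leaving out the replicate block (the kit term) had the widest effect on the count of members called: 0 over both lines (2 with it), 0 in line 1 (3), 1 in line 2 (3), 0 between the lines (2), 1 for both lines minus ARID1A+/- (3) and 0 in ARID1A+/- (1). Leaving out 1 library at a time gave 0 to 4 members over both lines, 0 to 4 in line 1, 1 to 4 in line 2, 1 to 2 between the lines, 0 to 2 in ARID1A+/- and 0 to 3 for the kit. DESeq2 called 2 members in ARID1A+/- and 4 for the kit, and limma called 0 in ARID1A+/- with either pseudocount. Over all genes, the number called ranged from 348 to 3570 over both lines (2090 in the reported fit) and from 57 to 1180 in ARID1A+/- (485).

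Signs turned only for differences that had not passed the threshold in the reported fit. Without the block, both lines minus ARID1A+/- gave 0.081 for GATA3 and 0.51 for HAND1, and ARID1A+/- minus control gave -0.023 and -0.36. With the block these values were -0.49, -0.081, 0.59 and 0.31. The ARID1A+/- library is KAPA alone, so without the block genotype and kit cannot be told apart in these comparisons. With limma, HAND2 gave 0.027 for both lines minus ARID1A+/- and -0.15 for the kit, with either pseudocount, and -0.00016 for the kit without a filter. Leaving out 1 library at a time gave GATA3 -0.036 to 0.23 over both lines, -0.085 to 0.18 in line 1 and -0.22 to 0.013 between the lines. It gave HAND2 -0.21 to 0.00087 in line 1, -0.053 to 0.16 between the lines, -0.13 to 0.025 for both lines minus ARID1A+/- and -0.049 to 0.088 for the kit. ISL1 ranged from -0.22 to 0.53 between the lines, -0.13 to 0.45 for both lines minus ARID1A+/- and -0.37 to 0.11 for the kit, and HAND1 from -0.40 to 0.038 for both lines minus ARID1A+/-. The cause was not tested. Of 665 alternative values for the members, 572 kept direction and side of the threshold, 47 lost a call, 20 gained one and 26 changed sign.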
